A study of Schizosaccharomyces pombe with 40 samples.

Results

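The 100 protein-coding genes described here are those whose poly(A)+ RNA stood highest in vegetative fission yeast (Schizosaccharomyces pombe) relative to the rest of a synchronized meiosis in the wt strain. They were chosen from 5152 coding features, out of 12684 annotated features in all. For each wt stage the log2 of CPM + 1 (CPM is the read count relative to the column total) was averaged over both replicates, 492 coding features that were highest in vegetative cells were kept, and the 100 with the largest difference between that value and the median of the other 9 stages were taken. Poly(A)+ RNA was sequenced from haploid h- cells in 2 strains, with 10 stages a strain and 2 biological replicates a stage, which gave 20 groups and 40 libraries. The wt genotype was leu1-32, pat1-L95G::kanR, and the other strain, snR107kloopmut (kloopmut from here on), carried in addition base changes in the kink-loop of snR107, a C/D-box snoRNA. Every library therefore carried an analog-sensitive Pat1 kinase and a leucine requirement, controls included. Vegetative cells (V) grew at 30 °C in EMM, which the study supplemented with leucine and uracil. Starved cells (-N) had spent 15 to 16 h in EMM without nitrogen, for which no supplement is stated. Cells of 1 to 8 h had then received 25 µM of the Pat1 inhibitor 3-MB-PP1 together with 500 µg/mL NH4Cl and 50 mg/L leucine. Nitrogen and leucine thus came back at the moment of induction, so the stages differ in nutrients as well as in meiotic state, and these cannot be told apart. Meiosis in this system starts from haploid cells by chemical inactivation of Pat1, not from mating.

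Growing fission yeast in minimal medium makes its own amino acids, purines and vitamins, fixes inorganic sulfate, pumps protons, assembles ribosomes and splits its septum at each division. Starvation for nitrogen stops these cells in G1, and Pat1, the kinase that blocks meiosis in growing cells, must be inactivated before meiosis begins. Pathways of biosynthesis in yeasts are commonly controlled at the level of transcription by their own end products, such as methionine, thiamine, iron or zinc.

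Total counts per library ran from 22889781 to 35440184. In such bulk samples fewer cells with an RNA and less of it per cell cannot be told apart. Levels are given as RPKM, reads per kilobase of the annotated feature and per unit of sequencing depth, with library sizes scaled by TMM over all 40 libraries (factors from 0.513 to 1.47). The 8 starvation markers chosen for these data, among them isp4, ste11 and mei2, summed to between 700.0 and 802 RPKM in the wt V libraries and to between 2224 and 2850 in wt -N. The 8 late meiosis and spore markers summed to 89.8 and 107 RPKM in wt V and to 105 and 99.3 in kloopmut V, against 154376 and 168971 at 8 h in wt. The spore markers were thus low in V, while the starvation markers were present there at levels like those at 3 h in wt, 633 and 752. At 6 h in wt the starvation markers summed to 2578 and 2727, so high values of this list were not particular to -N. The 8 meiotic prophase markers summed to 42.9 and 54.1 RPKM in wt V, 52.6 and 48.5 in wt -N and 559 and 465 at 3 h in wt. Both wt V libraries stood apart from each other: their correlation over features was 0.964, and 11 of the 100 members differed more than 2-fold between them, against 6.31% of all tested features and 0 members in kloopmut V. Among these 11 were SPBC1271.08c, with 22.6 and 47.7 RPKM in the wt V libraries, and adh4, with 60.9 and 127. Other features overlap 15 members over more than 90% of their length, and the share of reads from either cannot be told apart. The counts give no check of the snR107 sequence change itself.

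The values that chose the members ran from a score of 2.06 to 5.37 on the log2 scale, with a median of 2.59. The 15 highest scores belonged to SPBC460.05, SPBPB10D8.01, SPBC460.01c, zrt1, thi2, met17, vht1, nmt1, SPAC8E11.10, adg1, met26, pmp20, adh4, snz1 and ade10. Just inside the limit stood met10 (2.07), hsp3104 (2.06) and SPAC24H6.10c (2.06), and just outside it nmd5 (2.06), rpl3602 (2.06) and erg31 (2.05), so the limit fell in a continuous series. By wt replicate 1 alone the same rule kept 78 of the 100, by replicate 2 alone 79, and by both 59. With CPM from TMM-scaled library sizes it kept 71, without fib1, pyk1, acs1 and cat1 among others. On that scale 96 of the 100 members were highest at V in wt. The members were abundant RNAs in growing cells: their median was 144 RPKM in wt V and 109 in kloopmut V, against 26.1 and 25.2 for all 5152 coding features. A high score needs a wt V level above the 1 added to CPM, so the wt value is not independent of the rule. The 5 with the highest level in wt V were nmt1, thi2, shm1, met26 and sam1, with a mean of 7099, 6396, 3029, 2636 and 2409 RPKM.

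By known or annotated role, assigned after the members were seen, 10 belonged to sulfur, methionine and one-carbon metabolism, 15 to nitrogen assimilation and amino acids, 3 to purines, 7 to thiamine and other vitamins, 6 to metals and heme, 16 to ribosome biogenesis and translation, 8 to cell separation, wall and surface, 8 to carbon, organic acids and ion pumping, and 5 to lipids and sterols. The 5 features of the chromosome II telomeric gap were all members. The other 17 were of other or unknown role.

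The rule used every wt library, so only the 20 kloopmut libraries test it. All 100 members passed the filter on low counts that left 11918 features. In kloopmut, 91 of 100 members were lower in -N than in V cells and 0 were higher, by edgeR's quasi-likelihood test with a Benjamini-Hochberg adjusted p below 0.05 over all features tested. Of all features tested, 26.7% were lower. The median difference was -1.42 on the log2 scale over members and 0.063 over all features. Averaged over 1 to 8 h, 99 of 100 members were lower than in V, where 34.4% of all features were, with a median of -2.55. The exception was SPAPB15E9.06, an uncharacterized gene at -0.62 ± 0.32 (SE, adjusted p = 0.0918, edgeR). Its RPKM was 30.2 and 6.3 in the wt V libraries and 3.95 and 3.42 in kloopmut V. A single wt V library was high for this gene, and the other lay close to the highest later wt libraries, 5.76 and 5.81 at 1 h.

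Stage by stage in kloopmut, the number of members below V was 85 at 1 h, where 28.4% of all features tested were lower. For 2, 3 and 4 h it was 93, 96 and 98, beside 28.8%, 30.8% and 34% of all features. For 5 and 6 h it was 99 and 100, beside 33.7% and 34.2%, and for 7 and 8 h 99 and 98, beside 39.3% and 39%. With the same formula as the rule, scores of the members in kloopmut ran from 0.09 to 5.59 with a median of 2.38. No such score was computed over all features for comparison. With CPM from column totals, 87 of the 100 were also highest at V in kloopmut, where 10.2% of coding features were, and with TMM scaling 94 were, beside 15% of coding features. The 6 that were not, SPAPB15E9.06, tif471, ppp1, SPBC1271.08c, pas1 and cbf5, all stood highest at 1 h, by 0.90, 0.36, 0.31, 0.27, 0.13 and 0.042 on the log2 scale.

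**Figure D1:**
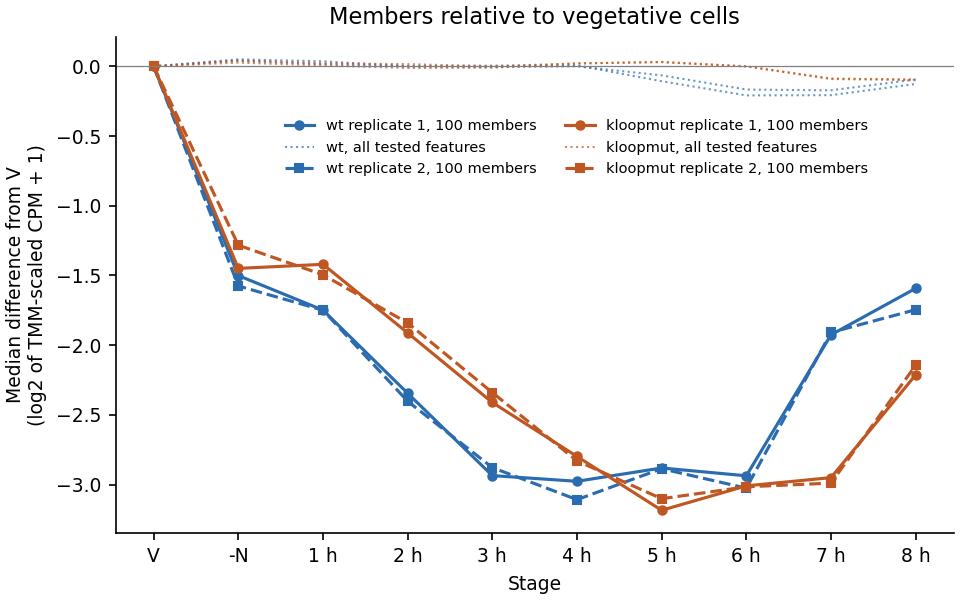
Median over the 100 members of the difference between each stage (x axis) and V in the same replicate number, in log2 of TMM-scaled CPM + 1, for each of the 4 series of libraries, with the median over all tested features as dotted lines. The median lay below V at every later stage in all 4 series, with the lowest mean over replicates at 4 h in wt (-3.04) and at 5 h in kloopmut (-3.14) on this scale. With total counts the lowest means came at 6 h in wt (-3.82) and at 7 h in kloopmut (-3.53).

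The course had a similar outline in both strains but not the same timing. The study reported that meiosis ran more slowly in all its snR107 mutants than in wt. The same hour is therefore not known to be the same meiotic stage in both strains. The part of this delay in the strain differences was not tested. In wt the median of the members lay 1.54 below V in -N cells and 3.04 below at 4 h, and it stood 1.67 below at 8 h. In kloopmut it was 1.37 below V in -N cells, 3.14 below at 5 h and 2.18 below at 8 h. These values are on the TMM scale, and the stage of the lowest median and the size of the late return depend on it. With total counts the wt median was -3.82 at 6 h, its lowest, and -2.50 at 8 h, and that of kloopmut -3.53 at 7 h and -2.90 at 8 h. The stage at which a member was lowest was most often 6 h in wt (28 members with TMM, 59 with total counts) and 7 h in kloopmut (38 and 62). Between 1 to 8 h and -N cells of kloopmut, 78 members fell (35.7% of all features did) and 6 rose (30.8%). The median over members was -1.20.

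**Figure D2:**
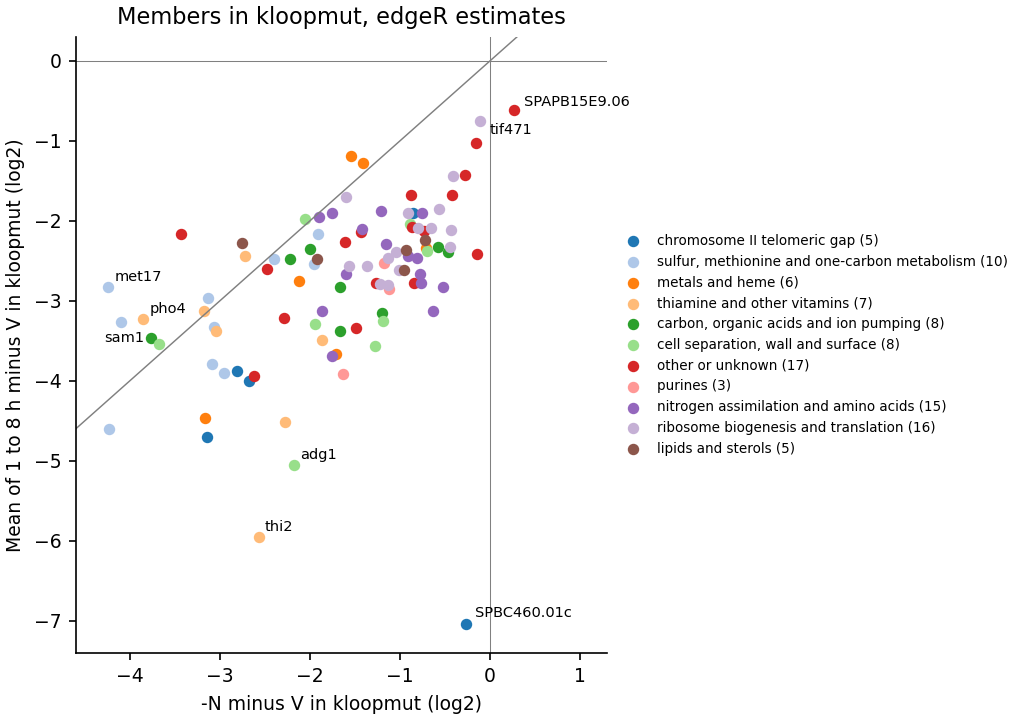
Each point is 1 member in kloopmut. The x axis is -N minus V and the y axis the mean of 1 to 8 h minus V, both edgeR log2 differences, and colours give roles with the number of members. Points under the grey line, where both are equal, were lower after induction than in -N cells. SPBC460.01c stood at -0.26 and -7.03, and met17 at -4.24 and -2.83.

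Genes of sulfur assimilation and of the methionine cycle had the deepest drop in starvation. All 10 (SPBPB10D8.01, SPBPB10D8.02c, met17, met26, sua1, sam1, met9, shm1, thf1 and met10) were lower in kloopmut -N than in V, with a median of -3.08. The RPKM of met17, homocysteine synthase, was 253 and 296 in wt V, 3.37 and 5.24 in -N, 166 and 183 at 1 h and 4.47 and 3.39 at 6 h. In kloopmut it was 99.4 and 95.5 in V, 5.02 and 5.19 in -N, 103 and 83.4 at 1 h and 6.56 and 4.86 at 6 h. Its RNA was thus almost lost in starved cells of both strains, was largely back within an hour of the inhibitor, NH4Cl and leucine, and was low again by 6 h. The kloopmut test gave -4.24 ± 0.16 for -N minus V (SE, adjusted p = 6.61e-12, edgeR) and 1.41 ± 0.12 for 1 to 8 h minus -N (adjusted p = 3.04e-08). It was the largest rise from -N among the 100 members.

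The RNA of sam1, S-adenosylmethionine synthetase, was 2011 and 2136 RPKM in kloopmut V and 110.1 and 129.9 in -N, and it rose again over 1 to 8 h by 0.84 ± 0.082 (log2, SE, adjusted p = 1.44e-07, edgeR). It stood at 351 and 354 RPKM at 8 h. For met26, the homocysteine methyltransferase that makes methionine, RPKM was 1672 and 1740.3 in kloopmut V, 192 and 207 in -N, 429 and 397 at 1 h and 43.3 and 44.4 at 8 h. Its higher value at 1 h was followed by its lowest levels at 7 and 8 h. The sulfate adenylyltransferase sua1, the first enzyme of sulfate assimilation, went from 634 and 556 RPKM in kloopmut V to 74.9 and 77 in -N and 12.6 and 10.4 at 7 h. The one-carbon genes shm1 (serine hydroxymethyltransferase), thf1 (C1-tetrahydrofolate synthase) and met9 (methylenetetrahydrofolate reductase) fell in starvation by 3.13, 1.96 and 3.07 on the log2 scale. The flavoprotein subunit of sulfite reductase, met10, was lower by 1.91, on the same scale and in the same contrast, so that the whole group lay between 1.91 and 4.24 under V.

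A neighbouring pair of this group, the cysteine transporter gene SPBPB10D8.01 and the arylsulfatase gene SPBPB10D8.02c, lies on chromosome II, where their annotated ends overlap by 129 bases and the genes point towards each other. Their reads in the overlap cannot be told apart, because how the counting treated strand is not given in the sources used here. SPBPB10D8.01 had 84.3 and 25.3 RPKM in wt V, 4.68 and 5.54 in kloopmut V and 0.167 and 0.367 in kloopmut -N. Both wt V libraries lay above both kloopmut V libraries, but the wt values differed by more than 3-fold among themselves. In kloopmut, -N was -4.24 ± 0.62 against V (SE, adjusted p = 2.71e-05, edgeR). SPBPB10D8.02c had 8.63 and 2.91 RPKM in wt V. It rested on few reads in kloopmut, 32 and 18 in the V libraries and 10 and 3 in -N, so its fall (-2.40 ± 0.82, adjusted p = 0.0203) is loosely set.

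The vitamin genes included both of the most abundant members, nmt1 and thi2. Of the 7 (nmt1, thi2, pho4, SPCC794.03, SPBC1604.04, vht1 and snz1), all were lower in kloopmut -N and over 1 to 8 h than in V, with medians of -2.72 and -3.38. Thiamine represses nmt1, which makes the pyrimidine moiety of the vitamin, and thi2, which makes its thiazole. In kloopmut, nmt1 was 7782 and 7896 RPKM in V, 1514 and 1689.8 in -N, 51.4 and 51.1 at 1 h, 765 and 699 at 6 h and 306 and 266 at 8 h. In wt it was 6279.9 and 7918, 1882 and 1849.6, 52.5 and 58.1, 851 and 795 and 407 and 424 RPKM at these stages. The RNA was at its lowest at 1 h in both strains and partly back from 2 h on. In -N both wt values lay above both kloopmut values. The nmt1 feature is overlapped along its whole length by other features.

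For thi2 there was no comparable return in kloopmut. Its RPKM was 5955 and 6130.4 in V, 956 and 1062 in -N, 114 and 104 at 1 h and 109 and 106 at 8 h, and its mean over 1 to 8 h was 62-fold below V (-5.95 ± 0.058, SE, adjusted p = 1.36e-19, edgeR). In wt thi2 was 5036 and 7756 RPKM in V, 85 and 91.2 at 2 h, 338 and 342 at 4 h and 428 and 451 at 8 h, so both wt libraries lay above both of kloopmut at 8 h. The acid phosphatase gene pho4, repressed by thiamine, fell the most of the group in starvation, -3.85 ± 0.12, and rose by 0.63 ± 0.085 over 1 to 8 h against -N (adjusted p = 6.87e-06). SPBC1604.04, a thiamine pyrophosphate transporter gene, rose too, by 0.28 ± 0.091 (adjusted p = 0.0118). With libraries scaled by total counts the sign of that small difference turned to -0.094. The biotin transporter gene vht1 was 149.6 and 449 RPKM in wt V and 105 and 114 in kloopmut V, and snz1, a pyridoxal 5'-phosphate synthase gene, was 568 and 1253 and 792 and 757. Both genes differed more than 2-fold between the wt V libraries and hardly at all between those of kloopmut. Of the 7 thiamine genes in the list chosen for these data (nmt1, thi2 and pho4 among them), 7 were lower in kloopmut -N than in V and 7 over 1 to 8 h, members and non-members alike.

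**Figure D3:**
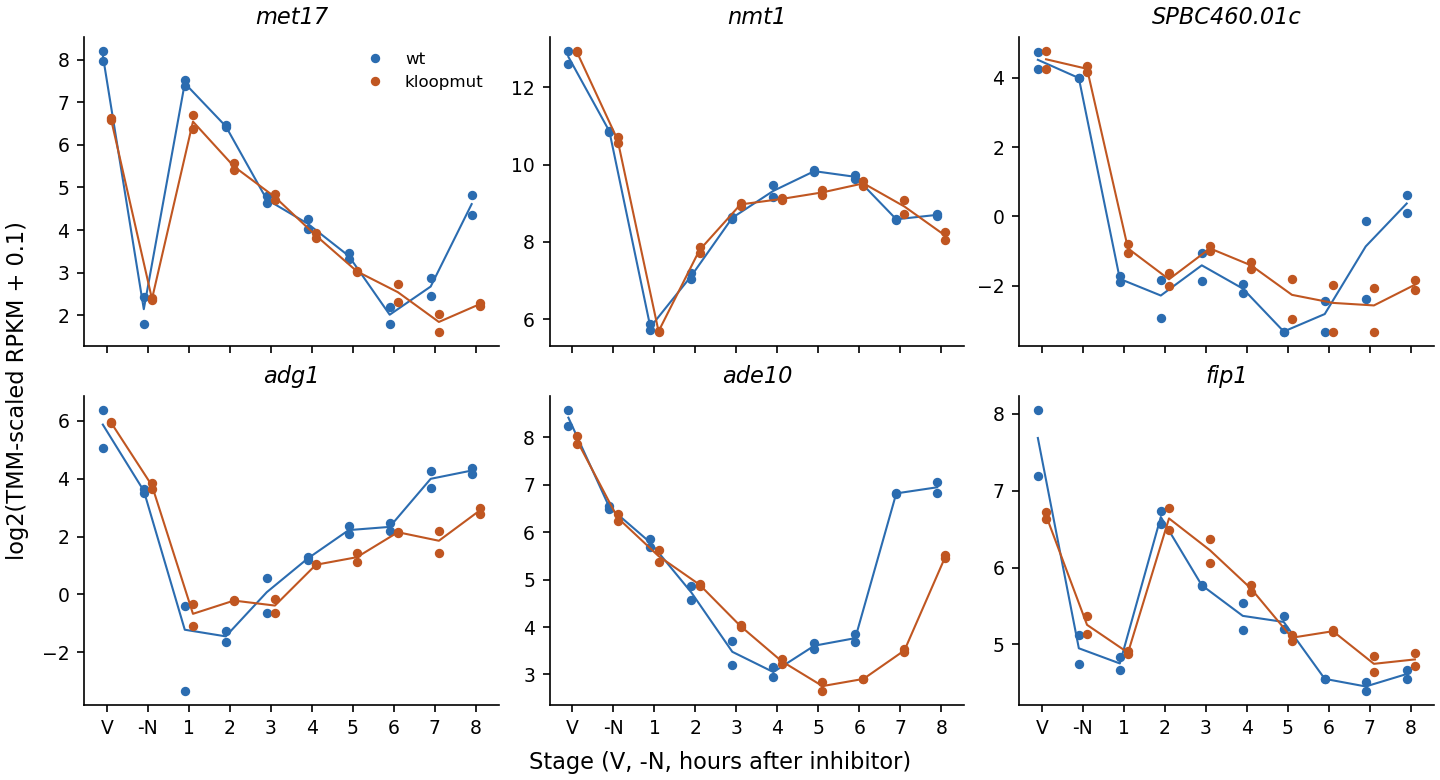
Log2(RPKM + 0.1) of 6 members in every library, by stage on the x axis. Points are libraries, lines join the log2 of the mean over both replicates, and the y axes differ between panels. The RNA of met17 was low in -N and high again at 1 h, and nmt1 was lowest at 1 h. SPBC460.01c stood at 1.42 RPKM or less from 1 h on. At 7 and 8 h ade10 stood higher in wt than in kloopmut.

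Among the metal genes, zrt1 encodes the plasma membrane zinc transporter and adh4 an alcohol dehydrogenase, and both genes are repressed by ample zinc in this yeast. The zrt1 RNA was 179 and 159 RPKM in kloopmut V, 15.8 and 21.5 in -N and 3.25 and 3 at 6 h. It was 129.8 and 176 in wt V, 15.1 and 18.5 in -N, 3.51 and 7.01 at 6 h and 32.9 and 58.8 at 8 h. The 2 strains overlapped in V and -N, and both wt libraries lay above both kloopmut libraries at 8 h. In kloopmut the mean over 1 to 8 h was 22.2-fold below V (-4.47 ± 0.11, adjusted p = 4.56e-15, edgeR). The difference of adh4 over 1 to 8 h was -3.66 ± 0.08. Of the 5 zinc genes in the chosen list, 4 were lower and 1 higher in kloopmut -N than in V.

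The iron genes fip1 (permease) and fio1 (multicopper oxidase), whose products form the high-affinity iron uptake complex, are neighbours on chromosome I and are transcribed away from each other across 303 bases. The fip1 RNA was 265 and 147 RPKM in wt V and 99.5 and 105 in kloopmut V, 25.4 and 28.4 and 30.0 and 29.2 at 1 h, and its mean at 2 h was 101 in wt and 99.6 in kloopmut. For fio1 the values were 55.2 and 25 in wt V and 13.1 and 19.99 in kloopmut V, and the means at 2 h were 10.8 and 11.3. By the means of both libraries, both genes were low in -N and at 1 h and higher at 2 h in each strain. For fio1 in kloopmut the libraries overlapped, with 6.93 and 15.8 RPKM at 2 h against 4.27 and 6.97 in -N. The kloopmut 2 h libraries also stood apart from each other, with 4.57% of all tested features more than 2-fold different. Over 1 to 8 h their falls from V in kloopmut were among the 5 smallest differences, -1.27 ± 0.085 for fip1 and -1.18 ± 0.22 for fio1 (edgeR adjusted p = 1.05e-09 and 1.59e-04). Of the 15 iron and copper genes in the chosen list, 9 were lower and 2 higher in kloopmut -N than in V, and 8 were lower and 3 higher over 1 to 8 h. The heme genes hem1 (5-aminolevulinate synthase) and hem3 (hydroxymethylbilane synthase) fell by 2.76 and 2.33 on the log2 scale over the same stages.

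Matches to GATAAG, the core to which GATA factors such as the iron-responsive Fep1 and the nitrogen-responsive Gaf1 bind, were found on either strand within 250 bases before to 50 bases after the annotated start in 4 of the 6 metal and heme genes. They occurred in 7 of the 15 nitrogen and amino acid genes, in 19 of the 95 members with a window and in 11.5% of all 5136 coding features with one. The single match in the windows of fip1 and fio1 is the same site, counted for both. The windows of fio1 and adh4 are shown with GATAAG or its complement in capitals, 5′ to 3′ on the coding strand, from the RefSeq genome ASM294v3, because the first is shared by the iron pair and the second holds a pair of matches.
fio1, chrI:4234822-4235121, plus strand: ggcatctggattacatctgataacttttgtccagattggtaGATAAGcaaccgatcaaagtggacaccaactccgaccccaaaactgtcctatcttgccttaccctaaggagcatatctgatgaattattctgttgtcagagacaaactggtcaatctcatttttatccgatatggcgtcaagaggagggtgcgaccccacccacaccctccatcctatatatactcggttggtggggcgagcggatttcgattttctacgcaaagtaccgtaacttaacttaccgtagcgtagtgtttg
adh4, chrI:157883-158182, minus strand: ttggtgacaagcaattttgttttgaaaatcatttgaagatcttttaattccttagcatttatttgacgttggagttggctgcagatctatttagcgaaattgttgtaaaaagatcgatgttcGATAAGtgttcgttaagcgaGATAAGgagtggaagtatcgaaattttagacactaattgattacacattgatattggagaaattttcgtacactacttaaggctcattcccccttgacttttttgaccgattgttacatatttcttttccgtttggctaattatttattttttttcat

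The genes of cell separation and the cell surface included eng1, which encodes the glucanase that dissolves the septum between daughter cells, and adg1 and cfh4. All 8 of this group (adg1, eng1, cfh4, pfl2, pfl3, cbm1, knh3 and SPBP23A10.11c) were lower in kloopmut -N and over 1 to 8 h than in V, with medians of -1.61 and -3.27. The adg1 RNA was 59.9 and 62.6 RPKM in kloopmut V, 12.5 and 14.4 in -N, 0.688 and 0.371 at 1 h and 6.84 and 7.92 at 8 h. In wt it was 33.6 and 82.9, 11.4 and 12.4, 0 and 0.66 and 20.7 and 17.9 RPKM, and no read was counted in 1 of the 1 h libraries. No induced library of either strain reached the V level. The kloopmut difference over 1 to 8 h was -5.05 ± 0.13 (adjusted p = 7.24e-15, edgeR), the third largest of the members.

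For eng1 the course differed late between the strains in these libraries. It was 22.2 and 42.1 RPKM in wt V, 1.96 and 1.98 at 1 h, 17.8 and 21.7 at 6 h and 8.8 and 9.45 at 8 h. In kloopmut it was 25.3 and 24.3 in V, 2.8 and 2.39 at 1 h, 2.66 and 3.25 at 6 h and 7.43 and 6.44 at 8 h. The wt libraries lay above those of kloopmut at 6 h without overlap. Of the eng1 feature, 91.4% is overlapped by other features. For cfh4, a chitin synthase regulatory factor gene, the kloopmut RPKM was 90.1 and 95 in V, 55.9 and 57 in -N and 13.7 and 12.9 at 1 h. The cell wall genes pfl2 and pfl3 (surface glycoproteins of a flocculin type), cbm1 (a protein with a cellulose-binding domain), knh3 and SPBP23A10.11c (a glucanase) fell over 1 to 8 h by 3.25, 3.54, 3.57, 2.04 and 1.98 on the log2 scale. Of the 22 cell separation genes in the chosen list, 13 were lower and 3 higher in kloopmut -N, and 14 were lower and 7 higher over 1 to 8 h, where 34.7% of all features tested were higher.

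Of 7 sequences reported beside GATAAG, each searched on both strands of the same windows, GTAAACA (forkhead factors) stood in 7 members and 16.45% of all, ACGCGT (MBF) in 2 and 3.23%, AGTCACA (core of the HomolD box) in 8 and 4.52%, and TGACTC (Gcn4-type) in 7 and 6.97%. CCAAT stood in 41 members and 42.2% of all, TGACGT (Atf1 core) in 7 and 5.96%, and GTGGGAA (CSL factors) in 6 and 1.77%. A match says only that these letters are in the window.

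The 15 genes of nitrogen assimilation and amino acid metabolism fell in 2 steps. In kloopmut -N, 14 were lower than in V, the exception being arg4 (-0.52 ± 0.22, adjusted p = 0.0502, edgeR), and the median was -1.16. Over 1 to 8 h, all 15 were lower than in V, with a median of -2.46, and 13 were lower than in -N. Glutamine synthetase, gln1, which with glutamate dehydrogenase (gdh1) takes up ammonium, had 140.2 and 211 RPKM in kloopmut V, 84.9 and 139 in -N, 31.4 and 34.4 at 1 h, 13.3 and 14.2 at 6 h and 42.4 and 54.8 at 8 h. The V and -N libraries did not overlap but nearly touched, and all libraries from 1 h on lay below them. The fall from -N over 1 to 8 h was -2.49 ± 0.15 (adjusted p = 4.09e-10), after ammonium had been added. For gdh1 the kloopmut means were 302 RPKM in V, 82.3 in -N, 21.6 at 1 h and 91.4 at 8 h.

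In the same group, arg1, arg4, lys12, ilv3, ser1, asn1, thr1, SPAC56E4.03 and SPAC24H6.10c encode enzymes of arginine, lysine, branched-chain, serine, asparagine, threonine and aromatic amino acid metabolism, alt1 and put2 alanine aminotransferase and the second enzyme of proline use, SPAC977.12 an asparaginase, and cat1 a transporter of basic amino acids. Their differences over 1 to 8 h in kloopmut lay between -1.88 (alt1) and -3.69 (put2). By 8 h in wt, arg1 stood at 249 RPKM against 265 in V, SPAC24H6.10c at 121 against 96 and cat1 at 33.1 against 26.3, as means of both libraries. In kloopmut these 3 stood at 123, 50.8 and 15.3. On this TMM scale SPAC24H6.10c and cat1 thus lay above V in wt at 8 h, while the rule used CPM from column totals. Of the 55 amino acid biosynthesis genes found of the 59 chosen, 12 were members, 44 were lower in kloopmut -N and 49 over 1 to 8 h, and 3 and 2 were higher.

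All 3 purine genes fell in both kloopmut contrasts against V. For ade10, which makes inosine monophosphate, the kloopmut RPKM was 262 and 232 in V, 75.2 and 82.8 in -N, 7.38 and 7.4 at 6 h, 11 and 11.6 at 7 h and 45.8 and 43.8 at 8 h. In wt it was 300.3 and 383 in V, 89.9 and 94.3 in -N, 12.7 and 14.3 at 6 h, 114 and 112 at 7 h and 133 and 113 at 8 h. At 7 and 8 h both wt libraries lay above both of kloopmut. Over 1 to 8 h in kloopmut, ade10, ade1 and ade4 were lower than V by 3.92, 2.85 and 2.52 on the log2 scale. Of the 17 purine and pyrimidine genes in the chosen list, 16 were lower and 1 higher over the same stages.

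Ribosome biogenesis and translation gave the largest group, 16 genes. They include the large subunit of RNA polymerase I (nuc1), box C/D and H/ACA snoRNP proteins (fibrillarin, fib1, and cbf5 and gar1), nucleolin (gar2), assembly factors of the large subunit (erb1, ppp1, mrt4, arx1 and rrb1), prp43, srp40, tif51 (eIF5A) and the initiation factors tif471 (eIF4G) and tif52, and lysyl-tRNA synthetase (krs1). The median drop in starvation was under 1 on the log2 scale: 13 of 16 were lower in kloopmut -N, with a median of -0.96, and srp40, tif52 and tif471 did not pass the test. Over 1 to 8 h all 16 were lower than V, with a median of -2.22, and 15 were lower than in -N. For fib1, whose product methylates RNA in box C/D snoRNPs, the kloopmut RPKM was 386 and 378 in V, 119 and 136 in -N, 207 and 194 at 1 h, 28.6 and 31.4 at 7 h and 77.1 and 84.1 at 8 h. In wt it was 267 and 392, 118 and 121, 164 and 197, 143 and 159 and 204 and 179.9 RPKM. The 1 h values lay above -N in each strain, and the lowest level came before 7 h in wt and at 7 h in kloopmut.

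For ppp1, a pescadillo-family protein needed for the large subunit, kloopmut had 50.2 and 49.1 RPKM in V, 37.7 and 24.8 in -N, 70.5 and 53.7 at 1 h and 1.63 and 2.89 at 7 h, so both 1 h libraries stood above both V libraries. In wt the same stages gave 53.3 and 46.2, 18.1 and 17.4, 40.01 and 38.6 and 4.66 and 5.53, with V highest. The fall of tif471 over 1 to 8 h was the second smallest of all members, -0.76 ± 0.13 (adjusted p = 5.17e-05, edgeR). Of the 40 ribosome biogenesis genes found of the 43 chosen, 18 were lower and 13 higher in kloopmut -N, where 30.9% of all features tested were higher, and 31 were lower and 1 higher over 1 to 8 h. Of 141 cytoplasmic ribosomal protein genes, none a member, 115 were lower in -N and 114 over 1 to 8 h, but 62 were higher and 10 lower over 1 to 8 h than in -N. Of the 40 biogenesis genes, 1 was higher and 35 lower in that contrast. Both lists were part of the same fit, and the difference between them was not tested.

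**Figure D4:**
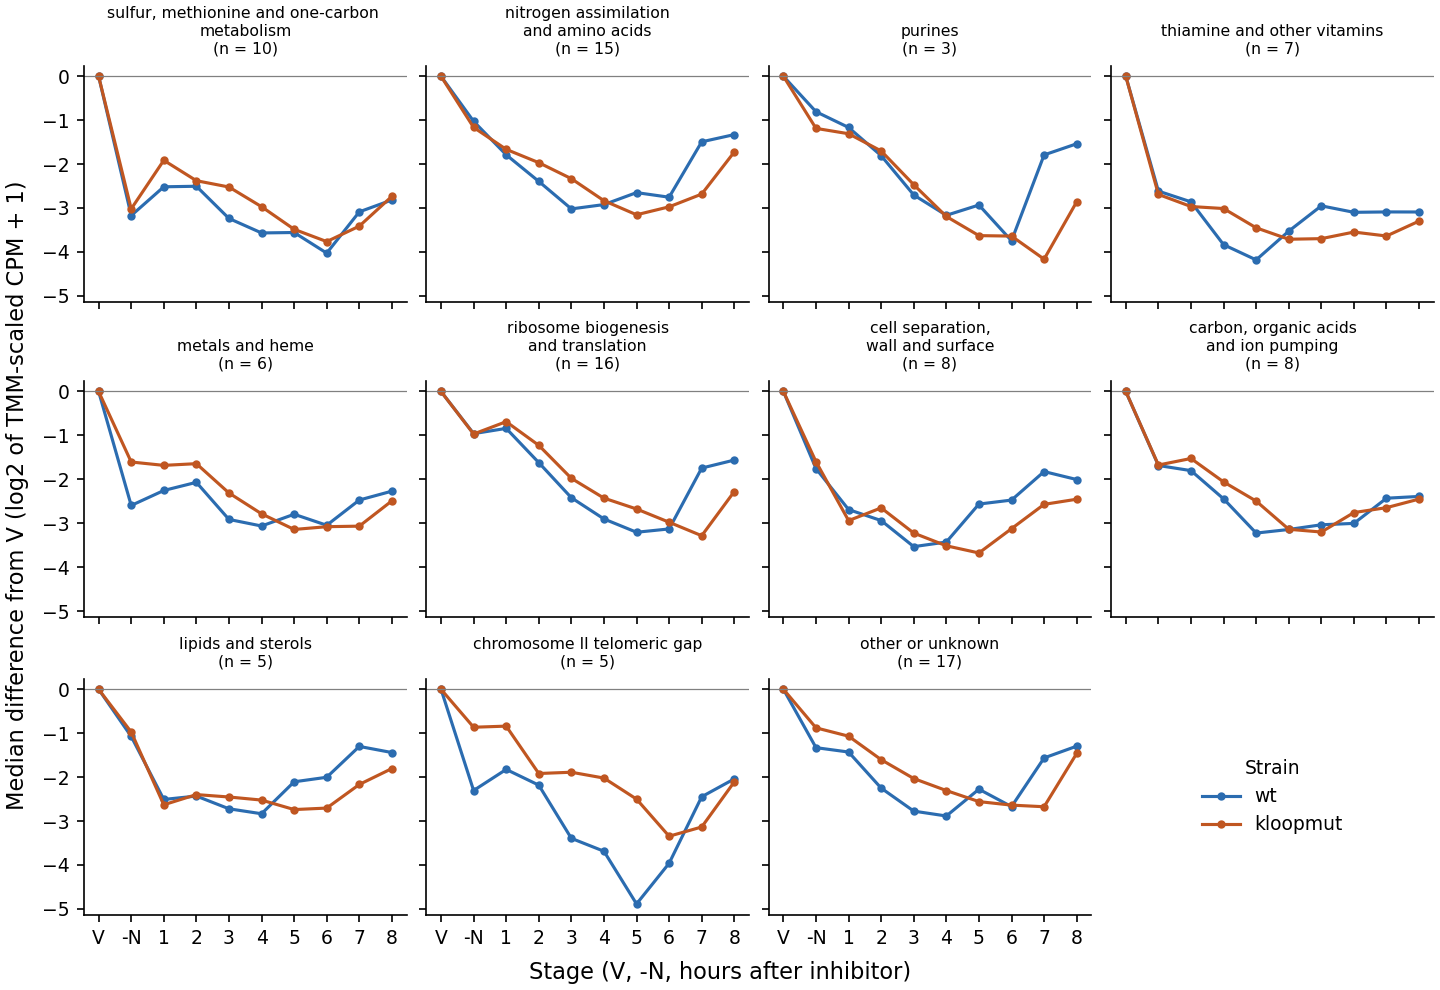
Median over the members of each role of the difference from V in log2 of TMM-scaled CPM + 1, by stage on the x axis, in wt and kloopmut, with the number of genes in each title. In -N cells sulfur and vitamin genes stood 3.02 and 2.69 below V in kloopmut, and went on to 3.77 below at 6 h and 3.71 below at 4 h. Ribosome genes stood 0.97 below in -N cells and 3.29 below at 7 h.

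The 8 genes of carbon metabolism and ion pumping were all lower in kloopmut -N and over 1 to 8 h than in V. They are pma1, the proton pump of the plasma membrane, pyk1, pyruvate kinase, idp1, isocitrate dehydrogenase, mae1, the malate transporter, nce103, a carbonic anhydrase, acs1 and pcs60, ligases of acetyl-CoA type, and SPAC8E11.10, a sorbose reductase. The pma1 RNA was 790.4 and 727 RPKM in kloopmut V, 224 and 249.8 in -N and 32.9 and 31.1 at 7 h, a fall over 1 to 8 h of -3.37 ± 0.065 (adjusted p = 2.94e-16, edgeR). For SPAC8E11.10 it was 138 and 131 in V, 9.53 and 10.01 in -N and 93.3 and 96.5 at 1 h, so most of the V level was back within an hour, before it stood at 5.9 and 3.71 at 6 h. The opposite order was seen for pyk1, with 781 and 902 RPKM in -N and 117 and 105 at 1 h. For acs1, wt had 62.9 and 97.7 RPKM in V, 8.13 and 10.4 at 1 h and 97.8 and 100.2 at 7 h, where both libraries lay above both of V on the TMM scale, while kloopmut had 71 and 58.8, 10.6 and 7.5 and 21.2 and 21.1. The neighbour SPCC191.03c, whose annotation overlaps that of acs1 by 376 bases on the same strand, had means of 50.5 in wt and 14 in kloopmut at 7 h, and reads in the overlap can belong to either gene.

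The 5 lipid genes also fell in both kloopmut contrasts against V. They were erg6 (sterol methyltransferase of ergosterol synthesis), ole1 (fatty acid desaturase), cho2 (phosphatidylethanolamine methyltransferase), ptl2 (triacylglycerol lipase) and ofd1, whose product controls the sterol regulator Sre1 with oxygen. Their differences over 1 to 8 h lay between -2.24 (ptl2) and -2.62 (ole1). The cho2 RNA was 234 and 221 RPKM in kloopmut V, 34.5 and 32.2 in -N and 51.2 and 52 at 6 h, and it rose by 0.48 ± 0.087 from -N to 1 to 8 h (adjusted p = 1.46e-04, edgeR). In wt, erg6 stood at 246 RPKM at 7 h, close to its 280.4 in V, and in kloopmut at 58 against 262. Of the 21 genes of the chosen sterol and fatty acid list, 17 were lower and 1 higher over 1 to 8 h.

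All 5 features of the telomeric gap of chromosome II, SPBC460.01c to SPBC460.05, were members, although they shared no single course. SPBC460.01c had 18.9 and 26.6 RPKM in wt V, 15.9 and 15.7 in -N and 0.171 and 0.202 at 1 h. In kloopmut it had 27.3 and 18.8 in V, 17.8 and 20.3 in -N and 0.38 and 0.472 at 1 h. In reads, kloopmut libraries held 1281 and 905 in V, 1173 and 1379 in -N, and from 0 to 29 at 1 to 8 h. The difference of -N from V was -0.26 ± 0.38 on the log2 scale (SE, adjusted p = 0.577, edgeR), and it was nearly absent 1 h after induction, the largest fall over 1 to 8 h of all members (-7.03 ± 0.25, adjusted p = 4.79e-13). SPBC460.05 had the highest score by the rule, from 54.7 and 36.7 RPKM in wt V against 0.298 and 0.411 in -N. In kloopmut V it had only 2.46 and 2.17, 107 and 97 reads against 3188 and 1433 in wt V. Both strains had it lower in -N. SPBC460.04c had 342 and 94 reads in wt V and 16 and 46 in kloopmut V, and at most 44 in any library of 1 to 8 h. Its difference of -N from V in kloopmut was -2.81 ± 1.05 (adjusted p = 0.0329). SPBC460.03 was 15.8 and 9.81 RPKM in kloopmut V, 2.26 and 1.7 in -N and 13.3 and 8.024 at 1 h, and SPBC460.02c was the most abundant of the 5, with 138 and 159 in V and 74.4 and 88.2 in -N. Their products were not annotated in the reference used here.

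The 17 genes of other or unknown role were SPAPB15E9.06, SPBC1271.08c, SPBC365.16, SPCC1840.07c, SPCC191.03c, SPCC330.07c, but2, cbp1, hdd1, hsp3104, izh3, obr1, pas1, pmp20, rep2, rnc1 and spf1. In kloopmut 13 of them were lower in -N than in V, and 16 over 1 to 8 h. They include rep2, an activator subunit of the G1/S factor MBF, with a fall of -2.78 ± 0.11 over 1 to 8 h, and the cyclin gene pas1, with one of -1.68 ± 0.067 (edgeR adjusted p = 1.26e-12 and 1.55e-12). The thioredoxin-related pmp20, ranked 12, had 749 and 925 RPKM in kloopmut V, 124 and 146 in -N and 23.8 and 18.5 at 7 h. Its neighbour SPCC330.07c, a transporter gene, rose from -N to 1 to 8 h by 1.27 ± 0.27 (adjusted p = 5.92e-04), from 0.635 and 0.893 RPKM to 4.71 and 5.14 at 1 h. The genes izh3 and SPBC365.16 had small falls of -1.67 and -1.43 over 1 to 8 h.

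Between the strains in vegetative cells the values are a description, since wt V chose the members. With both wt V libraries as reference, the median member was 0.21 lower in kloopmut V on the log2 scale, and it was 0.32 lower against wt V replicate 2 alone and 0.17 lower against replicate 1 alone. Both kloopmut libraries lay below both wt libraries for 52 members, above them for 5, and overlapped for 43. Over all tested features, 21% lay below. The 5 furthest below were SPBC460.05 (-3.95), SPBPB10D8.01 (-3.08), SPBPB10D8.02c (-2.74), SPBC460.04c (-1.79) and SPAPB15E9.06 (-1.71), followed by met17 (-1.48), vht1 (-1.24) and fio1 (-1.18). All of the first 5 except SPBC460.05 differed by more than 2-fold between the wt V libraries themselves. The 5 furthest above were rrb1 (0.58), obr1 (0.53), gar2 (0.36), ilv3 (0.34) and hsp3104 (0.26).

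**Figure D5:**
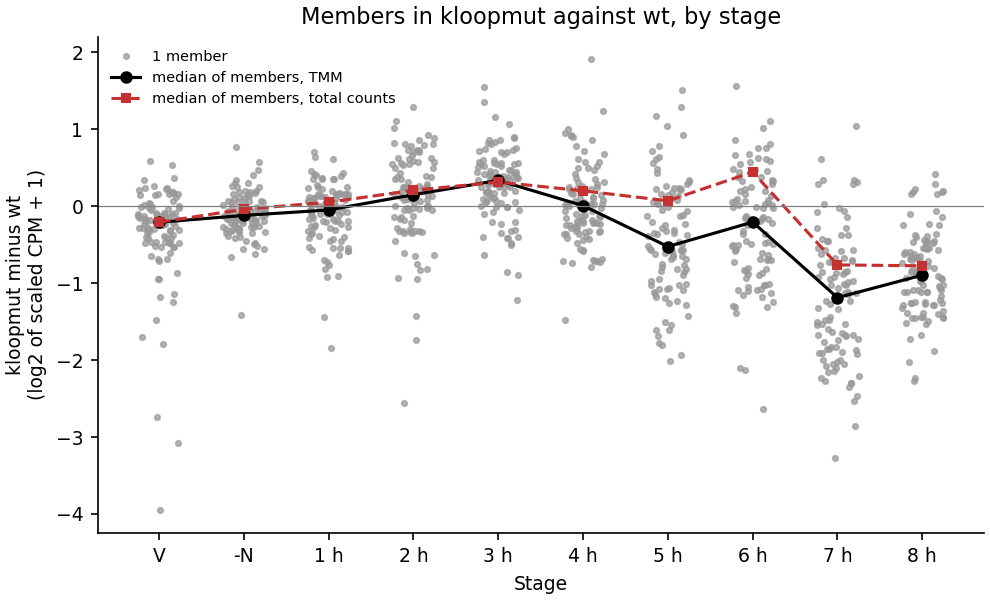
Difference between kloopmut and wt for each member at each stage (x axis), from means over both replicates in log2 of CPM + 1. Grey points are members with TMM scaling, the black line is their median and the red line the median with total counts. The median was 0.34 at 3 h and -1.19 at 7 h with TMM, and at 1, 5 and 6 h its sign depended on the scaling.

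During the later course the strain difference turned. The median over members was 0.34 higher in kloopmut at 3 h, where both kloopmut libraries lay above both of wt for 59 members and for 34% of all features. It was 1.19 lower at 7 h and 0.89 lower at 8 h, where both kloopmut libraries lay below for 86 and 89 members and for 39.3% and 39.9% of all features. With total counts the 3 medians were 0.32, -0.76 and -0.77. At 5 and 6 h they were -0.52 and -0.21 with TMM but 0.072 and 0.45 with total counts, so their sign depended on the scaling. Over all tested features the medians there were 0 and 0.082 with TMM and 0.46 and 0.67 with total counts. The median over members lay below that of all features on both scales. At 1 h the median over members was near 0 and also turned, from -0.048 to 0.053. At 7 h the ribosome genes were lower in kloopmut by a median of 1.39 with TMM and 0.96 with total counts, and the purine genes by 1.91 and 1.48. By 8 h, 80 members in wt and 49 in kloopmut stood more than 1 on the log2 scale above their own lowest stage with TMM, beside 48.5% and 37.2% of all features. With total counts 68 and 27 did, beside 33.9% and 19.9%. Within 1 of V at 8 h stood 18 members in wt and 8 in kloopmut with TMM, beside 80.2% and 77.6% of all features. With total counts 5 and 2 did, beside 55.9% and 59.1%. The rule chose members far above their other wt stages, so the wt counts are not independent of it. At 7 h the late meiosis and spore markers were lower in kloopmut as well. They summed to 125350 and 124033 RPKM in wt and to 89107 and 95528 in kloopmut, with none of the 8 genes at 0. At 3 h, where the median member was higher in kloopmut, these markers were lower there, 861 and 1019 against 1973 and 1956 in wt. At 6 h they were 52848 and 56459 in kloopmut and 95669 and 98830 in wt. Their part in the result was not tested.

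Some features that the rule did not use were shared. The members lay on chromosomes I, II and III in numbers of 39, 39 and 17, beside the 5 of the gap, and 6 lay within 100 kb of a chromosome end (6%, against 3.94% of coding features). Their annotated bodies were less covered by other features than those of coding features in general, with a median of 44.1% against 61.9%, and 29 members were under 10% covered. There were 9 pairs of adjacent members, 5 of them outside the gap: fip1 with fio1, SPBPB10D8.01 with SPBPB10D8.02c, thr1 with ade1, pmp20 with SPCC330.07c, and acs1 with SPCC191.03c. thr1 and ade1 are transcribed away from each other across 428 bases of chromosome II, and fell over 1 to 8 h in kloopmut by 1.91 and 2.85 on the log2 scale. The members held no gene of the chosen lists of hexose transporters, phosphate, stress response or mating genes, and of these the 13 mating genes were higher in kloopmut -N than in V for 11 and lower for 0.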

How the data were processed

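The deposited values were counts of reads per annotated feature, one column for each of 40 libraries. Per the labels and the methods of the study, the authors selected poly(A)+ RNA with poly-T beads, sequenced 150 bp paired ends, trimmed with fastp 0.23.1, aligned with STAR 2.6.1d and counted with featureCounts 2.0.6. The genome release, the strand setting and the treatment of multiply mapped reads are not given in the sources used here, so reads of overlapping features cannot be told apart. No column of per-sample values was left unmapped.

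The rule used log2 of CPM with 1 added. The 20 kloopmut libraries (10 stages, 2 replicates) were fitted with edgeR 4.0.16 in R 4.3.3 by the quasi-likelihood test with TMM scaling and Benjamini-Hochberg adjustment over 11918 features, after filterByExpr removed 766. The p-values measure the spread between replicates that the labels call biological. Per the methods of the study, aliquots of induced cultures were taken every hour, so libraries of different stages can share a culture. The main fit treated the 20 kloopmut libraries as independent, so its p-values take no account of shared cultures and may be too small. The script was tested on simulated counts. wt values and differences between strains are given with no test, since the rule used wt. DESeq2 1.42.0, limma-voom (limma 3.58.1), other scalings, no filter, an added fold limit, a replicate block and left-out libraries were tried. Genes were named by score, level, size of difference, membership of a list, stage of highest level and position, and others were named after their values were seen to describe each role. Members, roles, lists and motifs were chosen with earlier results of these data known. Of 12684 features, 12603 matched the RefSeq annotation of ASM294v3, including 95 members, and promoter windows came from that genome. A motif that was searched is not reported here.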

Additional observations from a re-analysis of the deposited data

Results flagged for a closer look

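For 3 members the mean of 1 to 8 h lay above -N in both wt libraries and below it in both kloopmut libraries. On the scale of log2 of TMM-scaled CPM + 1, wt minus its -N value was 0.67 for SPBC460.05, 0.22 for SPBC460.03 and 0.86 for acs1. The kloopmut values were -0.14, -0.65 and -0.22. The difference between strains was not tested, because the wt libraries chose the members, and SPBC460.05 rested on 14 and 18 reads in kloopmut -N.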

How the results depend on the processing

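Over 13 alternatives, all 100 members kept direction and call for 1 to 8 h minus V in kloopmut, and 76 did so for each of -N minus V and 1 to 8 h minus -N. Scaling by total counts moved the median of all features for -N minus V from 0.063 to 0.44 and left 77 members lower than V. With an absolute log2 difference above 1 also required, 66 were lower in -N than in V, and 58 were lower and 2 higher over 1 to 8 h than in -N. The other tools, no filter and all 40 libraries gave 92 to 93 in -N. The rule applied to each wt replicate alone kept 59 in both. With TMM-scaled library sizes the rule kept 71, and with 5 added to CPM it kept 90. The median of kloopmut minus wt with total counts was -0.039 in -N and turned to 0.053 at 1 h. At 2 and 4 h it was 0.21 and 0.20, at 5 and 6 h it turned to 0.072 and 0.45, and at 7 and 8 h it was -0.76 and -0.77. The cause was not tested. Over all tested features the medians with total counts were 0.46 and 0.67 at 5 and 6 h. At V the median of kloopmut minus wt over members ranged from -0.32 to -0.17 when 1 library was left out, the first without wt V replicate 1. Members with under 10% overlap numbered 29, of which 26 were lower in kloopmut -N and 28 over 1 to 8 h than V (chosen after seeing the data).

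With total counts, uncalled or small differences of -N minus V turned to 0.28 (tif471), 0.23 (SPBC1271.08c), 0.088 (SPBC365.16), 0.11 (SPBC460.01c) and 0.25 (spf1). Those of 1 to 8 h minus -N turned to -0.33 (vht1), -0.24 (fip1), -0.011 (fio1), -0.22 (shm1), -0.077 (SPAC8E11.10), -0.094 (SPBC1604.04), -0.25 (pfl3) and -0.30 (SPBP23A10.11c), and limma-voom gave 0.026 for SPBPB10D8.02c. With 1 library or replicate left out, -N minus V ranged from -0.46 to 0.089 (tif471), -0.10 to 0.47 (SPAPB15E9.06) and -0.63 to 0.096 (SPBC460.01c). For 1 to 8 h minus -N the ranges were -0.019 to 0.17 (vht1), -0.19 to 0.11 (SPAC977.12), -0.20 to 0.055 (gar1), -0.016 to 0.31 (pfl3), -0.049 to 0.30 (SPBP23A10.11c), -1.04 to 0.34 (SPBPB10D8.01), -0.67 to 1.06 (SPBPB10D8.02c) and -0.33 to 0.19 (SPCC191.03c). Leaving 1 library out keeps a lone sample in that group, assumed to vary like the other groups. Leaving a whole kloopmut replicate out keeps a lone sample in every kloopmut group. The spread in those fits came from the wt libraries, which had chosen the members.

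Across 45 pairs of kloopmut stages the correlation of same-numbered deviations ran from -0.37 to 0.52, with a median of 0.043 and 17 above 0.1. With so few replicates a stage, these correlations cannot show whether same-numbered libraries shared a culture. With a replicate block, 94 members were lower in -N than in V, 99 over 1 to 8 h than in V, and 80 were lower and 6 higher over 1 to 8 h than in -N.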
